A study of Homo sapiens with 4 samples.

Results

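FOXK2 peaks in long terminal repeat (LTR) retroelements made up 684 of 12471 peaks in replicate 1 and 1725 of 27281 peaks in replicate 2. They are the peaks whose deposited annotation gives a repeat of the class LTR. The 2 lists come from chromatin immunoprecipitation of FOXK2 followed by sequencing (ChIP-seq) in OVCAR5 cells, which the paper uses as an ovarian cancer line. The biological replicates were a single condition at passages 4 to 6, with no knockdown or treatment named, so that no comparison between conditions was possible. Peaks of replicate 1 were all 210 bp long and those of replicate 2 all 256 bp. The matching input libraries were not analysed here, and the total number of tags behind each list was not given.

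FOXK2 is a forkhead transcription factor, and forkhead factors bind short AT-rich sites around the heptamer TGTTTAC. LTRs are the ends of endogenous retroviruses, which entered the germ line of ancestors and spread as copies. They once carried the promoter and enhancer of the virus, and many stand alone today because recombination between the ends removed the internal genes. ERV1, ERVK and ERVL are the main families of endogenous retroviruses in the human genome, while the mammalian apparent LTR retrotransposons (ERVL-MaLR) are old elements without genes for their own movement. Copies of one repeat name descend from one ancestral element, so its peaks often share a sequence and are not independent draws. AP-1, the dimer of FOS and JUN proteins, binds TGACTCA or its reverse complement TGAGTCA and occupies many distal enhancers.

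In all, 229 LTR loci were bound in both replicates and carried the heptamer in replicate 2, and they were spread over many names. MER50 held 9 of them and MER92B 8. The 3 most frequent names were LTR22A with 15 loci, LTR22B with 11 loci and MER101-int with 10 loci. LTR22A and LTR22B are LTRs of the ERVK family, and MER101-int is an internal part of an ERV1 element. Their sites are shown with 10 bases on each side, 5′ to 3′ on the strand that reads TGTTTAC, from hg38, with the heptamer in capitals. Each name is shown by 3 of its 6 highest-ranked shared loci, picked for windows that differ.
LTR22A, chr7:48140199-48140225, plus strand: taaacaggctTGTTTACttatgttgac
LTR22A, chr3:112752251-112752277, plus strand: taaacaggccTGTTTACttatgttgac
LTR22A, chr13:24925827-24925853, plus strand: taaataggctTGTTTACttacattgac
LTR22B, chr13:107192546-107192572, minus strand: ctagctagctTGTTTACtcatgtggtc
LTR22B, chr3:16144077-16144103, minus strand: cttactagctTGTTTACtcatgactaa
LTR22B, chr4:68367939-68367965, plus strand: ctaactagctTGTTTACtcatgtggtc
MER101-int, chr17:5833033-5833059, plus strand: atggttttctTGTTTACattcctctgt
MER101-int, chr9:132703509-132703535, plus strand: ctagttttctTGTTTACattcctctgt
MER101-int, chr2:55848235-55848261, minus strand: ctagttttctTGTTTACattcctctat

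The first LTR22A window also stood unchanged at chr13:79441789-79441815, chr1:75707431-75707457 and chr7:48144413-48144439. Across the replicate 2 peaks with the heptamer, the flanking 20 bases matched the most frequent window of the name at a median of 19 bases in LTR22A (28 peaks), 19 in LTR22B (19 peaks), 18 in MER101-int (12 peaks) and 15.5 in MER50 (28 peaks). Most peaks of the first 3 names with the heptamer thus had near-identical bases around it, while the MER50 windows were less alike.

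The shared LTR locus with the best mean score percentile over both lists was a MER76 element of the ERVL family at chr2:113818475-113818731 in replicate 2, with rank 54 and score 35.5 in replicate 1 and rank 84 and score 60.1 in replicate 2. Scores are scaled to their own list, so they were compared only as ranks. It was intergenic, 61780 bp from the start of SLC35F5, a member of a solute carrier family. The 200 bases around its replicate 2 centre held a heptamer 38 bp to the left of the centre and an AP-1 site 96 bp to the right, both in capitals.
MER76, chr2:113818503-113818702, plus strand: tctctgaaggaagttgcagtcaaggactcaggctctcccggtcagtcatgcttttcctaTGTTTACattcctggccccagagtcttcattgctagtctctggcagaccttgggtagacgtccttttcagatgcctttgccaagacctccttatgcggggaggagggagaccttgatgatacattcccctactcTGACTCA

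LTR elements accounted for 5.48% of replicate 1 peaks (Wilson 95% interval 5.10% to 5.90%) and 6.32% of replicate 2 peaks (6.04% to 6.62%), with a mean of 5.90% ± 0.593 (SD, n = 2). These and all later intervals cover counting error only. For comparison, the lists held 1044 and 2561 LINE peaks, 281 and 618 SINE peaks, and 305 and 816 DNA transposon peaks. The largest group, with 6373 and 14489 peaks, lay in introns or intergenic sequence with no repeat and no CpG island, and is called repeat-free distal. LTR peaks were less frequent among the strongest peaks. They made up 3.26% of the 1013 peaks at the top of replicate 1 and 3.28% of the 1007 at the top of replicate 2 (tied scores were kept together), against 6.37% and 7.62% of the peaks below the median rank.

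By position, 452 of 684 LTR peaks in replicate 1 and 1132 of 1725 in replicate 2 were intergenic, and the others, 232 and 593, were in introns. No LTR peak carried a promoter annotation, which the choice of members by a repeat annotation may itself fix. The median distance to the nearest annotated transcription start was 37396 bp in replicate 1 and 43313 bp in replicate 2. For repeat-free distal peaks it was 31685 bp and 33561 bp. LINE peaks lay at a median of 40752 bp and 38353 bp, DNA transposon peaks at 30580 bp and 36767.5 bp, and SINE peaks at 27621 bp and 32597.5 bp. The nearest gene was not protein-coding for 36.1% of LTR peaks against 29% of repeat-free distal peaks in replicate 1 (odds ratio 1.38, adjusted p = 0.000359 over 12 comparisons by a two-sided Fisher's exact test), and for 33.4% against 30.2% in replicate 2 (odds ratio 1.16, adjusted p = 0.0106). When only intergenic peaks of both groups were compared, the difference was lost (odds ratio 1.07 in replicate 1 and 0.932 in replicate 2). Within 500 bp of a GENCODE release 44 transcript start, a distance chosen after seeing the data, there were 20 LTR peaks in replicate 1 and 63 in replicate 2 (2.92% and 3.65%), of which 16 and 44 were at a gene that is not protein-coding. Among the repeat-free distal peaks 498 and 1048 lay that close (7.81% and 7.23%), of which 198 and 447 were at a gene that is not protein-coding. Examples bound in both replicates were an LTR22C2 element on chromosome 4, 51 bp from a start of MAP9-AS1, and an LTR10B1 element in intron 1 of 3 of ZNF440, 397 bp from a start of that gene, which encodes a zinc finger protein.

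The 4 largest LTR families held most of the peaks in both replicates. ERV1 held 219 and 576 LTR peaks (32% and 33.4% of all LTR peaks in replicates 1 and 2), ERVL held 196 and 468 (28.7% and 27.1%), ERVL-MaLR held 173 and 445 (25.3% and 25.8%), and ERVK held 75 and 173 (11% and 10.0%). The makeup by family was thus nearly the same in both lists. The rest were Gypsy elements (9 and 34), elements with the family given only as LTR (4 and 12), and families written with a question mark, namely Gypsy? (5 and 11), ERVL? (3 and 4) and ERV1? (0 and 2). The LTR peaks carried 250 repeat names in replicate 1 and 371 in replicate 2, with 236 in both, and 125 and 118 names had a single peak. Across the 385 names found in either list, the numbers of peaks correlated with Spearman's rho of 0.671, a description across names of loci that the lists share. Binding was thus spread over many names, and 10 names in replicate 1 and 51 in replicate 2 had 10 or more peaks.

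The 10 most frequent names in replicate 2 were MLT1J with 47 peaks, MLT1H with 41, MER50 with 38, MLT1I with 36, LTR22A with 29, MLT1D and MLT1K with 26 each, and ERVL-E-int, LTR33 and MLT1C with 25 each. MLT1 names are old ERVL-MaLR LTRs and together held 166 peaks in replicate 1 and 416 in replicate 2. Internal parts of elements, whose names end in int or in a separate I (as in MamGypsy2-I), held 90 peaks (13.2%) and 269 peaks (15.6%). The other 86.8% and 84.4% had names without these endings.

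The heptamer was far more frequent in LTR peaks than in sequence nearby. In replicate 1 it was found no farther than 100 bp from the centre in 281 of 684 LTR peaks (41.1%, 37.5% to 44.8%), against 40 of 1368 control windows centred 2000 bp to each side of them (2.92%, odds ratio 23.1, adjusted Fisher's exact p = 6.79e-108). In replicate 2 it lay in 627 of 1725 LTR peaks (36.3%, 34.1% to 38.6%) and 92 of 3450 control windows (2.67%, odds ratio 20.8, adjusted Fisher's exact p = 1.75e-231). The control windows were not chosen to lie in LTR sequence. Repeat-free distal peaks showed a similar contrast, with 34.5% against 3.09% in replicate 1 and 30.7% against 3.09% in replicate 2. In LTR peaks the heptamer was close to the peak centre, at a median distance of 20 bp in replicate 1 and 18 bp in replicate 2. The replicates share loci and hence sequence, so the second value is not independent of the first, and the p-values treat peaks as independent although copies of one name are related.

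LTR peaks held the heptamer more often than repeat-free distal peaks, with 41.1% against 34.5% in replicate 1 (odds ratio 1.32, 1.13 to 1.55, Fisher's exact test, adjusted p = 0.00149) and 36.3% against 30.7% in replicate 2 (odds ratio 1.29, 1.16 to 1.43, adjusted p = 7.81e-06). With the degenerate forkhead core in place of the exact heptamer, found in 65.6% and 65.9% of LTR peaks, no difference from repeat-free distal peaks was detected (odds ratios 0.905 and 1.05, Fisher's exact p = 0.246 and 0.379). The difference was not particular to LTRs among repeats. LINE peaks held the heptamer in 46.9% and 46.0%, SINE peaks in 32.4% and 31.1%, and DNA transposon peaks in 39.7% and 35.9%. Against these 3 classes together, the odds ratio of LTR peaks was 0.922 in replicate 1 (p = 0.382) and 0.802 in replicate 2 (unadjusted Fisher's exact p = 0.000211). Without the LTR22 names, chosen after seeing the data, the difference from repeat-free distal peaks was not past the threshold in replicate 1 (odds ratio 1.12, Fisher's exact p = 0.205) and was in replicate 2 (1.13, p = 0.0261).

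The AP-1 site was in 167 LTR peaks of replicate 1 (24.4%, 21.3% to 27.8%) and 390 of replicate 2 (22.6%, 20.7% to 24.6%), against 3.07% and 2.96% of control windows. Repeat-free distal peaks held it in 21.9% and 21.5%, and a difference was not detected (odds ratios 1.15, 0.957 to 1.38, and 1.07, 0.949 to 1.21; Fisher's exact test, adjusted p = 0.175 and 0.304). Among peaks above the median rank, replicate 1 passed (odds ratio 1.33, unadjusted Fisher's exact p = 0.0315). Against LINE, SINE and DNA transposon peaks together, LTR peaks held the site more often in both lists (odds ratios 1.25 and 1.24, unadjusted Fisher's exact p = 0.0410 and 0.00224). By class, the site was in 17.2% and 15.9% of LINE peaks, below LTR peaks, but in 27% and 25.9% of SINE peaks and 25.9% and 23.8% of DNA transposon peaks. Both motifs stood together in 69 LTR peaks of replicate 1 (10.1%, 8.05% to 12.6%) and 114 of replicate 2 (6.61%, 5.53% to 7.88%), against 5.90% and 4.62% of repeat-free distal peaks, 8.20% and 6.13% of DNA transposon peaks, 7.12% and 5.83% of SINE peaks and 4.79% and 3.40% of LINE peaks, with no test made. Neither was found in 44.6% and 47.7% of LTR peaks, which says only that these letters were not in the window.

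**Figure D1:**
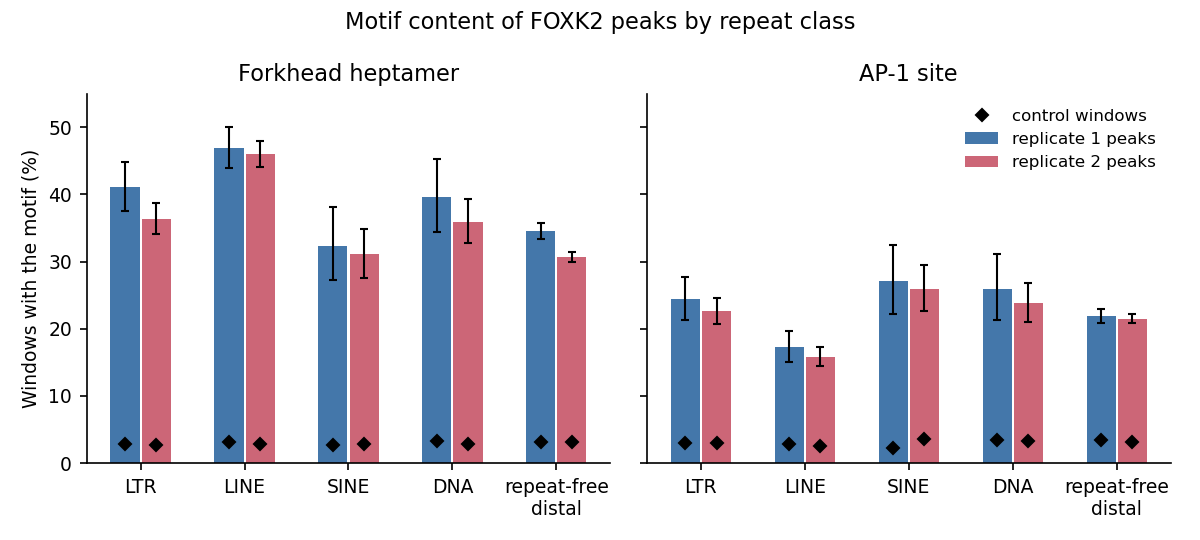
Share of windows (%) with the forkhead heptamer (left) or the AP-1 site (right) within 100 bp of the centre, for FOXK2 peaks by repeat class in replicate 1 (blue) and replicate 2 (red). Bars are shares with Wilson 95% intervals and diamonds are control windows 2000 bp away. LTR bars stand at 41.1% and 36.3% for the heptamer, above repeat-free distal and below LINE peaks, and all control windows lie under 4%.

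The families differed from each other in the heptamer. Among families with at least 20 peaks, ERVK was the highest, with the heptamer in 52 of 75 peaks in replicate 1 (69.3%) and 101 of 173 in replicate 2 (58.4%). ERV1 followed with 46.6% and 43.8%, then ERVL with 33.2% and 33.3%, and ERVL-MaLR with 30.1% and 21.6%. Gypsy reached 20 peaks only in replicate 2, where it stood between ERVL and ERVL-MaLR with 10 of 34 (29.4%). Each family was tested against all other LTR peaks of its list by a two-sided Fisher's exact test, adjusted over the families with at least 20 peaks. This test and the later ones by family or name treat peaks as independent, although copies of one name are related by descent. In replicate 1, 4 of 4 families tested passed (100%), of which ERVK was higher (odds ratio 3.75, adjusted exact p = 7.82e-07), ERV1 higher (1.39, adjusted p = 0.0462), ERVL lower (0.625, adjusted p = 0.0104) and ERVL-MaLR lower (0.529, adjusted p = 0.00133). In replicate 2, 3 of 5 passed (60%), with ERVK higher (2.74, adjusted exact p = 1.60e-09), ERV1 higher (1.61, adjusted p = 1.33e-05) and ERVL-MaLR lower (0.388, adjusted p = 6.16e-14). Among peaks above the median rank, ERV1 was not past the threshold in either list (1.29 and 1.32, adjusted exact p = 0.332 and 0.104), nor was it in windows of 50 bp to each side in replicate 1 (adjusted exact p = 0.0598).

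The high share of ERVK was held by the LTR22 names. These carried the heptamer in 45 of 48 peaks in replicate 1 and 79 of 85 in replicate 2 (93.8% and 92.9%). ERVK peaks of all other names carried it in 7 of 27 and 22 of 88 (25.9% and 25%). Without the LTR22 names, the ERVK odds ratio against other LTR peaks was below 1 in both lists (0.581, adjusted exact p = 0.309, and 0.650, adjusted p = 0.172), and ERV1 alone of 4 families passed in replicate 1, and ERV1 and ERVL-MaLR of 5 in replicate 2.

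The AP-1 site followed another order. ERVL was higher than other LTR peaks, with 32.7% in replicate 1 (odds ratio 1.81, adjusted Fisher's exact p = 0.00616) and 29.3% in replicate 2 (1.64, adjusted p = 0.000190). ERV1 was lower, with 17.4% (0.547, adjusted exact p = 0.00616) and 17% (0.602, adjusted p = 0.000190). These were the 2 families called of 4 in replicate 1 (50%) and of 5 in replicate 2 (40%). ERVK held the site in 30.7% and 21.4% and ERVL-MaLR in 22% and 23.8%, and neither family passed.

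**Figure D2:**
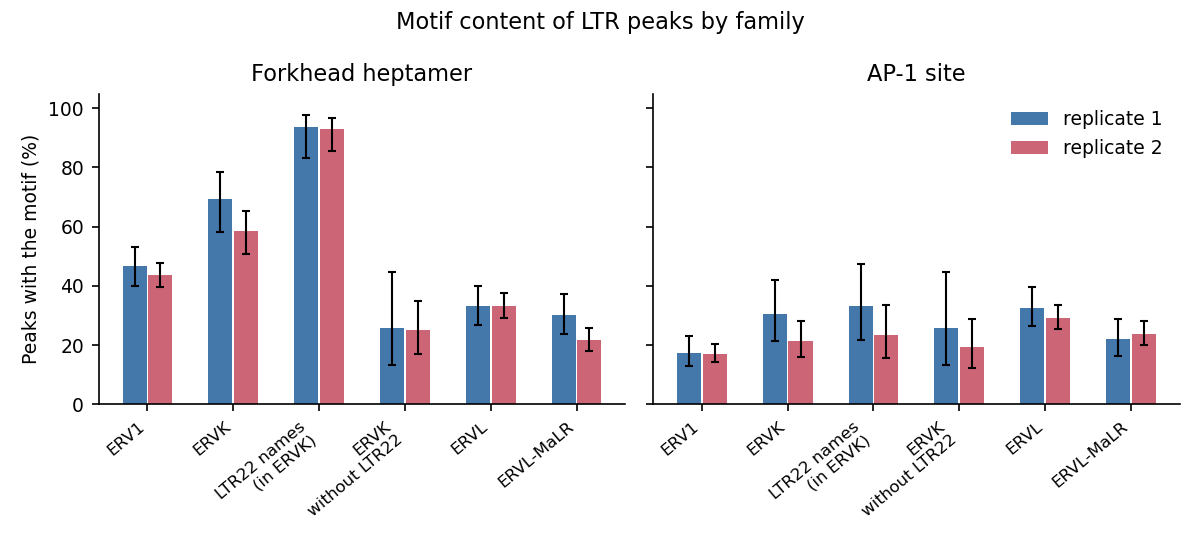
Share of LTR peaks (%) with the forkhead heptamer (left) or the AP-1 site (right) by family, with ERVK also split into LTR22 names and the rest, in replicate 1 (blue) and replicate 2 (red). Error bars are Wilson 95% intervals. The LTR22 bars reach 93.8% and 92.9%, whereas the rest of ERVK stands at 25.9% and 25%.

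By repeat name, 4 of the 11 names with at least 20 peaks in replicate 2 were called for the heptamer (36.4%). Peaks of a name are related copies that can share the heptamer by descent, so the p-values do not count separate events. LTR22A held it in 28 of 29 peaks (96.6%, odds ratio 51.3, adjusted Fisher's exact p = 7.02e-11), LTR22B in 19 of 20 (95%, odds ratio 34.3, adjusted p = 2.72e-07) and MER50, an ERV1 LTR, in 28 of 38 (73.7%, odds ratio 5.09, adjusted p = 1.14e-05). MLT1C was lower, with 3 of 25 (12.0%, odds ratio 0.235, adjusted exact p = 0.0295). Fewer names reached 20 peaks among those with all 50-base words unique, where 1 of 9 was called, and above the median rank, where 0 of 2 were called. In replicate 1 only MLT1J reached 20 peaks, and it was not called (0 of 1, 0%, Fisher's exact test, also 0 at an unadjusted p under 0.05). The names called in replicate 2 held the heptamer there in 18 of 19 peaks (LTR22A), 11 of 11 (LTR22B), 9 of 15 (MER50) and 1 of 7 (MLT1C).

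With at least 10 peaks, 5 of 10 names were called in replicate 1 (50%) and 14 of 51 in replicate 2 (27.5%). LTR22A, LTR22B, MER101-int (11 of 11 and 12 of 13 peaks) and MER92B, an ERV1 LTR (10 of 12 and 11 of 13), were higher in both lists. ERVL-E-int was lower in replicate 1, with 1 of 12 (adjusted exact p = 0.0380), but held the heptamer in 7 of 25 peaks in replicate 2 (adjusted p = 0.628). In replicate 2 the heptamer was also more frequent in LTR22B1 (17 of 18), LTR10A (12 of 12), LTR18B (15 of 18), LTR3B_ (10 of 11), LTR40A1 (10 of 12), HUERS-P3-int (8 of 10) and MER50, and less frequent in MER21C (1 of 16), LTR13 (0 of 11, which allows a share of up to 27.3%) and MLT1C. The names ranged from those with the heptamer in nearly every peak to those with it in almost none.

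The same names split differently for the AP-1 site. Of the 11 names with at least 20 peaks in replicate 2, 2 were called (18.2%): LTR22B was higher with 10 of 20 (50%, odds ratio 3.49, adjusted exact p = 0.0349), and MER50 was lower with 0 of 38, which allows a share of up to 7.89% (adjusted p = 0.00105). With at least 10 peaks, 7 of 51 were called (13.7%), and besides LTR22B and MER50 these were LTR18B (16 of 18), LTR13 (8 of 11), LTR10A (8 of 12), LTR8B (9 of 16) and ERVL-B4-int (9 of 17), all higher. In replicate 1, 0 of 1 and 0 of 10 names were called (0%, Fisher's exact test), with 1 of the 10 at an unadjusted p under 0.05. LTR22A and LTR22B thus resembled each other in the heptamer, but the AP-1 site was in only 2 of 29 LTR22A peaks of replicate 2, and in 2 of 19 of replicate 1 against 6 of 11 for LTR22B. This difference between the names was not tested.

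**Figure D3:**
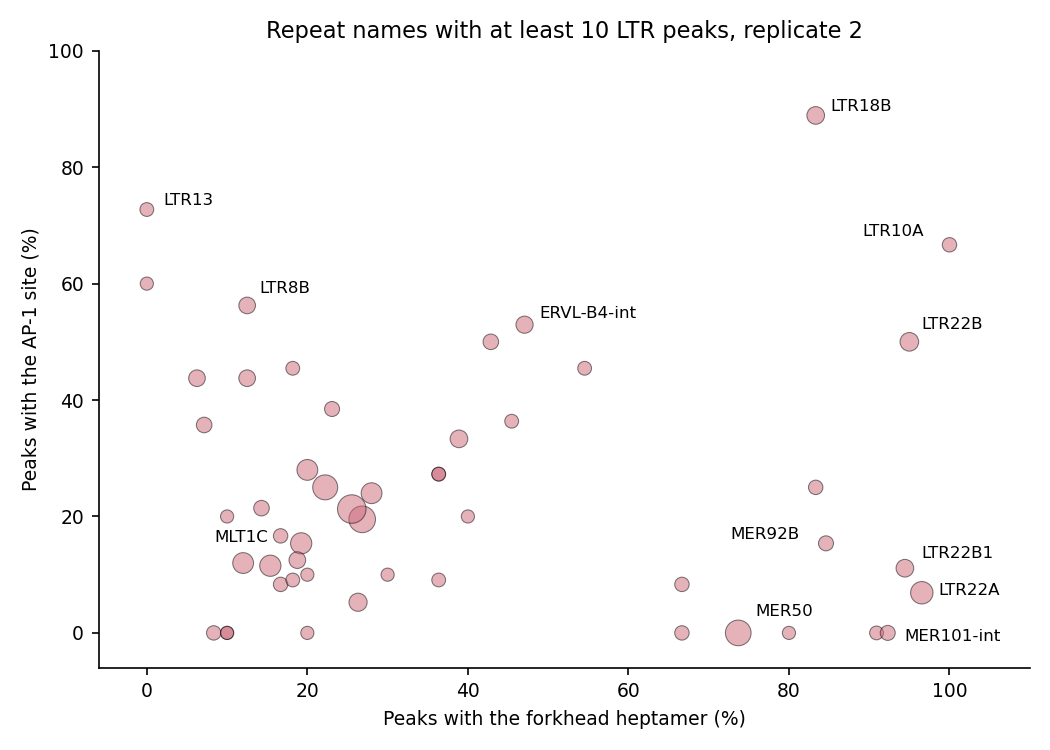
Share of peaks with the AP-1 site (y axis, %) against the share with the forkhead heptamer (x axis, %) for the 51 repeat names with at least 10 LTR peaks in replicate 2. Each point is a name, with an area in proportion to its number of peaks. LTR22A and MER50 lie at high heptamer and low AP-1, LTR13 at 0 for the heptamer and 72.7% for AP-1, and LTR18B, LTR10A and LTR22B are high in both.

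In the names rich in both motifs, the spacing of the heptamer and the AP-1 site was alike in most peaks of a name, most closely in LTR18C. In LTR18B, an ERVL LTR, the centres were a median of 15 bp apart in 14 replicate 2 peaks, with 12 of them within 5 bp of that value, and 15 bp in 7 replicate 1 peaks. In LTR18C the spacing was 14 bp in all 7 replicate 2 peaks and in all 4 replicate 1 peaks. In LTR10A the median was 66.5 bp in 8 peaks of replicate 2 (range 40 to 68 bp, 6 within 5 bp of the median) and 67 bp in 4 of replicate 1, and in LTR22B it was 101 bp in 9 peaks (range 91 to 112 bp) and 96 bp in 6 (76 to 101 bp). Over all LTR peaks with both motifs the median was 43.5 bp in replicate 2 (range 7 to 168 bp, 12 of 114 within 5 bp of it). The spacing was examined after seeing the data, and the copies of a name are related by descent. The windows of the best-ranked shared LTR18B and LTR10A loci with both motifs, and the AP-1 window of LTR22B, are shown with the motif in capitals.
LTR18B heptamer, chr5:134245504-134245530, plus strand: tcatgcaggaTGTTTACcttggtctat
LTR18B AP-1, chr5:134245490-134245516, minus strand: acatcctgcaTGACTCAgtgggattgg
LTR10A heptamer, chr16:12612712-12612738, minus strand: tggaaaagctTGTTTACtgaaactagg
LTR10A AP-1, chr16:12612780-12612806, minus strand: taaccagcgtTGACTCAggatggagta
LTR22B AP-1, chr3:16143986-16144012, minus strand: ctagtggtgtTGACTCAagcctttgtc

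The LTR22B AP-1 window was identical at chr12:15616634-15616660 and chr4:68368030-68368056. The LTR18B peak lay 19250 bp from the start of PPP2CA, which encodes a catalytic subunit of protein phosphatase 2A, with rank 1147 in replicate 1 and 2050 in replicate 2. The LTR10A peak lay 107580 bp from MIR4718, with ranks 1263 and 716.

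Within the peaks, the heptamer lay on both sides of the centre in each of these names. In replicate 2 it was within 30 bp of the centre in 75% of the LTR22A peaks that held it and 91.7% of MER101-int. The share was 71.4% in MER50, 66.7% in LTR10A and 47.4% in LTR22B, against 66.2% of all LTR peaks with the heptamer. The order differed in replicate 1. There the shares were 66.7% in LTR22A, 72.7% in MER101-int, 55.6% in MER50, 100% in LTR10A and 63.6% in LTR22B, against 67.3%. The median distance in replicate 2 was 16 bp in LTR22A and 32 bp in LTR22B, but in replicate 1 it was 24 bp and 22 bp. LTR22B1 held 2 or more heptamers within 100 bp of the centre in 11 of 17 replicate 2 peaks with the heptamer, and in 4 of 8 of replicate 1.

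**Figure D4:**
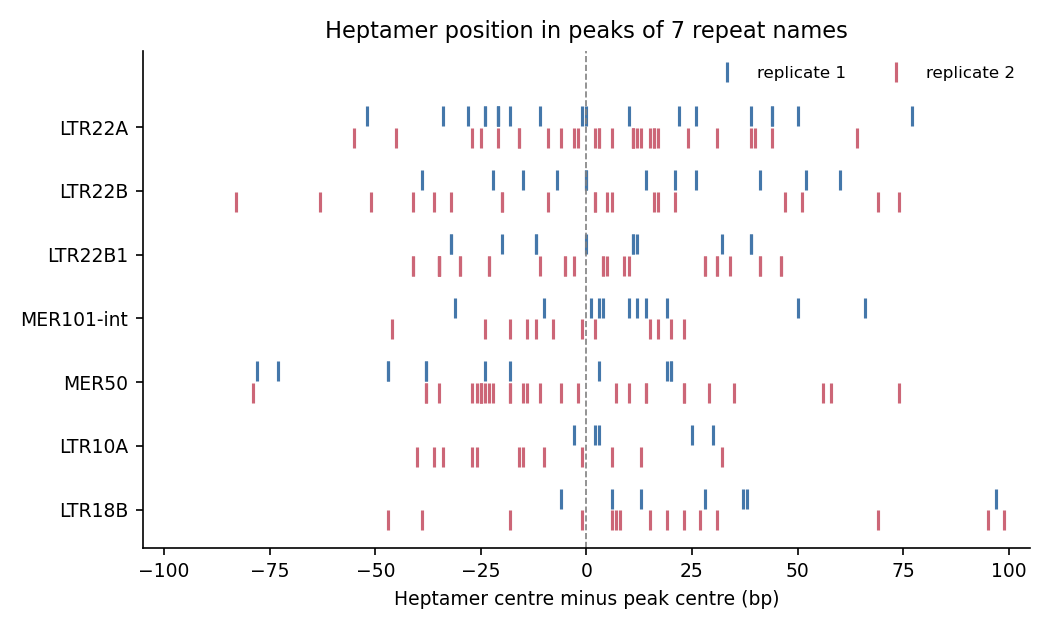
Position of each forkhead heptamer relative to the peak centre (x axis, bp) in peaks of 7 repeat names, in replicate 1 (blue) and replicate 2 (red). Each tick is the heptamer nearest the centre of a peak, and the dashed line is the peak centre. Most ticks lie within 50 bp of the centre.

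The number of bound copies was then set beside the number of copies in the genome, for windows like those printed above. This comparison was chosen after seeing the data and is given without a test, because the windows were taken from bound peaks that hold the heptamer. Copies of the most frequent 27-base window of LTR22A, LTR22B and MER101-int were searched in hg38 with up to 3 changes in the 20 flanking bases. Of 345 copies with the heptamer intact, 47 lay in a replicate 1 peak (13.6%, 10.4% to 17.6%) and 74 in a replicate 2 peak (21.4%, 17.4% to 26.1%). Of 110 copies with 1 base of the heptamer changed, 0 lay in a replicate 1 peak, which allows a share of up to 2.73%, and 4 in a replicate 2 peak (3.64%, 1.42% to 8.98%).

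By name, 19 and 25 of 85 intact LTR22A copies were in peaks of replicates 1 and 2, against 0 and 1 of 17 changed copies. For the LTR22B window, which also occurs in related LTR22 names, the counts were 20 and 38 of 218 against 0 and 3 of 61. For MER101-int they were 8 and 11 of 42 against 0 and 0 of 32. The most frequent change in MER101-int was C7T, where position 1 is the first T of TGTTTAC, found in 14 copies of which 0 were in a peak in either replicate. The windows of MER50 and LTR10A, searched in the same way, were in peaks at 4 and 11 of 390 intact and 0 and 3 of 193 changed copies for MER50, and at 1 and 4 of 64 intact and 0 and 0 of 30 changed copies for LTR10A. Over all 5 windows, 52 and 89 of 799 intact copies and 0 and 7 of 333 changed copies were in peaks. Most intact copies of each window thus had no peak.

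Reads of 50 bases can map equally well to several copies of a young repeat, so the uniqueness of each peak's sequence is given here. All 50-base words of the peak occurred once in hg38 for 88.2% of LTR peaks in replicate 1 and 83.3% in replicate 2, against 98.5% and 97.5% of repeat-free distal peaks. In ERVK the share was 34.7% and 27.2%, in LTR22A 4 of 19 and 11 of 29 peaks, and in LTR22B 5 of 11 and 8 of 20. It was 11 of 11 and 13 of 13 in MER101-int, and 15 of 15 and 35 of 38 in MER50. In the median LTR22A peak, 96.9% and 98.6% of words were unique. Among peaks with all words unique, the heptamer was not past the threshold against repeat-free distal peaks in replicate 1 (odds ratio 1.18, Fisher's exact p = 0.0665) and was in replicate 2 (1.16, p = 0.0118), and ERVK was still higher than other LTR peaks in both (3.20, adjusted exact p = 0.00902, and 6.05, adjusted p = 2.80e-08). Among copies whose words were all unique, intact LTR22A copies were in peaks at 8 and 11 of 40, against 0 and 1 of 12 changed copies. The counts were 11 and 25 of 102 against 0 and 3 of 27 for LTR22B, and 8 and 10 of 33 against 0 and 0 of 31 for MER101-int. They were 4 and 7 of 326 against 0 and 3 of 162 for MER50, and 0 and 1 of 19 against 0 and 0 of 8 for LTR10A.

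LTR peaks recurred between replicates in most of the shorter list and a smaller part of the longer one. In replicate 1, 514 of 684 LTR peaks shared 1 bp or more with a peak of replicate 2 (75.1%), against 74.4% of repeat-free distal peaks (odds ratio 1.04, 0.869 to 1.25, Fisher's exact test, adjusted p = 0.678). In replicate 2, 506 of 1725 overlapped (29.3%) against 32.7% (odds ratio 0.852, 0.764 to 0.951, adjusted exact p = 0.00638), and with lists of equal length the direction turned (odds ratio 1.12, p = 0.202). LTR peaks also had lower scores than repeat-free distal peaks, with 44.9% against 51.0% above the median rank in replicate 1 (odds ratio 0.781, adjusted Fisher's exact p = 0.00381) and 40.6% against 48.9% in replicate 2 (odds ratio 0.712, adjusted p = 1.81e-10). In replicate 1, LTR peaks of score deciles 2 to 5 were overlapped more often than repeat-free distal peaks. Their shares ran from 55.8% against 49.9% to 79.1% against 75.4%. In the lowest decile the share was 43.4% against 47.8%, and in the sixth 80% against 80.7%. The seventh, eighth and ninth gave 92.4%, 95.1% and 100%, against 88.3%, 90.9% and 95.5%. The highest had 100% against 99.6%. No test was made by decile. Within the lowest 5 score deciles of replicate 2, the shares of LTR peaks overlapped were slightly below those of repeat-free distal peaks, from 1.71% against 2.17% in the lowest to 20.9% against 22.1% in the fifth. In the sixth they were 33.8% against 29.9%. LTR peaks were overlapped in 48.3%, 60.7% and 78.2% of the peaks of the seventh, eighth and ninth decile, against 42.4%, 54% and 68.4% of repeat-free distal peaks, and in 87.1% against 90.4% of the highest. Against LINE, SINE and DNA transposon peaks together, a score difference was not detected in either list (odds ratios 1.03 and 1.02, Fisher's exact p = 0.783 and 0.792).

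**Figure D5:**
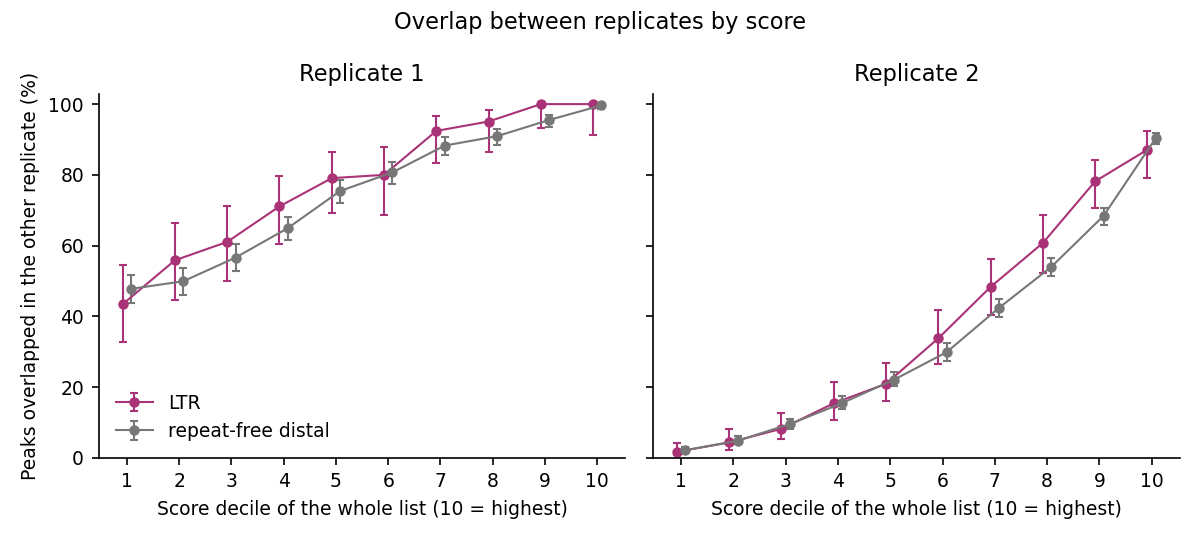
Share of peaks (%) overlapped by a peak of the other replicate, by score decile of the whole list (10 is the highest), for LTR peaks (purple) and repeat-free distal peaks (grey), with Wilson 95% intervals. In replicate 2 the LTR points of the sixth to ninth decile lie above the grey ones, for example at 78.2% against 68.4% in the ninth, while the highest decile has 87.1% against 90.4%.

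In 474 cases an LTR peak of one replicate overlapped an LTR peak of the other, and in all 474 the repeat name was the same. The centres lay a median of 27 bp apart, and the scores of the pairs had a Spearman's rho of 0.803, a description across loci. The heptamer was in 229 of these loci (48.3%) and the AP-1 site in 127 (26.8%), by the replicate 2 centre. ERVK peaks of replicate 1 recurred at 84.0% (63 of 75), ERV1 at 76.7%, ERVL at 75.5% and ERVL-MaLR at 69.4%, and those of replicate 2 at 36.4%, 27.8%, 32.3% and 26.3% in the same order.

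The 10 shared LTR loci with the best mean score percentile came from 10 names. After MER76 they were a MER68 element on chromosome 8 (ranks 68 and 65 in replicates 1 and 2), LTR22A at chr7:48140067-48140323 (85 and 104), MER4D on chromosome 8 (148 and 122), LTR28B at chr3:161890152-161890408 (138 and 194), MER54A at chr11:19028241-19028497 (236 and 211), MER92C at chr7:121544895-121545151 (260 and 306), MER77 at chr5:10507552-10507808 (260 and 380), LTR106_Mam at chr14:22334030-22334286 (363 and 258) and MER21C at chr4:141350252-141350508 (338 and 411). The LTR22A locus lay 31265 bp from the start of ABCA13, a large ABC transporter, and a second LTR22A peak of both lists lay 27073 bp from the same gene. The MER4D locus was nearest to PDP1, a phosphatase that activates pyruvate dehydrogenase, the MER54A locus to MRGPRX2, a mast cell receptor, and the MER92C locus to FAM3C, which encodes a secreted protein. MER77 lay in intron 1 of 2 of LINC02213, and the other 9 were intergenic. The heptamer was in 8 of the 10 loci in both lists, with MER4D and MER21C the exceptions.

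The best shared locus of each remaining family ranked lower. For ERVL-MaLR it was an MLT1A element on chromosome 8 (ranks 742 and 387), for Gypsy a MamGypLTR1a element in intron 11 of 14 at chr2:213995404-213995660 (974 and 1605), for ERVL? LTR55 at chr2:63827884-63828140 (3127 and 1246) and for Gypsy? LTR85b at chr20:8094627-8094883 (5169 and 2255), 37510 bp from PLCB1, a phospholipase C. All but MLT1A held the heptamer. Nearest genes were 646 in replicate 1, 1537 in replicate 2 and 458 for the shared loci, and 16 genes had 2 shared LTR loci each. Among them, SP100, a nuclear body protein, had 2 LTR44 loci, and LINC01192 had MER50 and LTR22B.

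Among LTR names with a known regulatory record, LTR10 names held 11 and 18 peaks in replicates 1 and 2, with the heptamer in 9 and 17 and the AP-1 site in 4 and 8. All LTR10 peaks with the AP-1 site were of LTR10A, where 4 of 5 and 8 of 12 peaks held it. LTR10 elements are known as AP-1-bound enhancers in epithelial tumours. MER41 held 9 and 19 peaks, with the heptamer in 3 and 5. MER21 held 12 and 28 peaks, with the heptamer in 1 and 4, and LTR8 held 9 and 23, with the AP-1 site in 5 and 13. LTR13 held 5 and 15 peaks, of which 0 had the heptamer and 4 and 12 the AP-1 site. MER11 held 4 and 23 peaks, MSTB 2 and 11, MER61 1 and 9, THE1 1 and 7, MSTA 2 and 5, and MER39 3 and 3. LTR7, the LTR of HERV-H that is active in pluripotent cells, had 0 and 6 peaks, LTR5 had 1 and 2, LTR12 had 0 and 3, and LTR2 had 0 and 4. In all, these stems covered 60 of 684 and 176 of 1725 LTR peaks.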

How the data were processed

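FOXK2 ChIP-seq peak lists of 2 biological replicates of OVCAR5 cells were used as deposited. The authors mapped 50-base single-end reads to hg38 with Bowtie2 2.2.6 and called and annotated peaks with HOMER 4.10, separately in each replicate. The deposited peak score, the focus ratio (a fraction, not used in a comparison) and the distance to the nearest start come from the authors' HOMER run, and scores were ranked only within a list. The depth in tags was not given, and reads and input libraries were not analysed here.

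Motifs were searched on both strands of hg38 with their centre within 100 bp of the peak centre. Shares carry Wilson intervals (95%), and Fisher's exact test (two-sided) was used between shares, with Benjamini-Hochberg adjustment over 12 comparisons or over the names or families of a list with at least 20 peaks (names also with at least 10). A count of 0 was given the limit of 3 counts of the total. Copies of windows were searched in chromosomes 1 to 22, X and Y.

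Repeat names in the text are the 10 most frequent of replicate 2, all names called, and a list of stems. Loci are the 10 best shared, the best of each family, and up to 6 per name for sequences. MLT2 and LTR22 groups, spacing, GENCODE starts, copies and the names shown for both motifs were chosen after their values were seen. The members and lists were chosen with earlier results of these data known. The overlap, motif and per-name steps were tested on simulated data. In the per-name simulation the motif was drawn independently for each peak, so related copies of a name were not simulated. Alternatives were parts of each list, other windows, controls and comparators, stricter overlap and unique words. Software was samtools 1.23.1, pysam 0.24.0, numba 0.67.0, statsmodels 0.14.6, matplotlib 3.10.9, pandas 2.3.3, scipy 1.17.1 and numpy 2.4.6 under Python 3.11.15.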

Additional observations from a re-analysis of the deposited data

How the results depend on the processing

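Of 128 alternatives of the results above, 94 kept their direction and their side of the threshold, stayed within error (shares) or stayed near the main value (counts). For counts, near meant within a set fold of the main value, which is not an error limit. Shared LTR loci thus counted as unchanged at 374 with lists of equal length. Values are for replicates 1 and 2, and odds ratios unless stated. The mean LTR share moved from 5.90% to 4.87% in peaks above the median rank, 5.27% with lists of equal length and 5.29% among peaks with unique words (5.48% to 6.32% leaving out a replicate). Overlap turned to 0.994 and 1.12 with equal lists, and in replicate 2 weakened to 0.947 in peaks above the median rank. Against LINE, SINE and DNA peaks overlap was 1.31 and 1.05, the heptamer 0.922 and 0.802, the AP-1 site 1.25 and 1.24 (below LTR in LINE peaks only), and score 1.03 and 1.02. The heptamer difference from repeat-free peaks was 1.18 in replicate 1 with unique words, 0.905 and 1.05 for the degenerate forkhead core, and 1.12 in replicate 1 without LTR22 names. The AP-1 site in replicate 1 gave 1.33 in peaks above the median rank and 1.26 and 0.927 in windows of 50 and 500 bp, and against all other peaks 1.65 and 1.47. The noncoding nearest gene gave 1.07 and 0.932 for intergenic peaks, and 1.19 in replicate 2 with equal lists. Without LTR22 names, ERVK gave 0.581 and 0.650, and 1 family was called in replicate 1. Names called for the heptamer rose to 5 and 14 with at least 10 peaks, and in replicate 2 fell to 0 in peaks above the median rank, 1 with unique words and 0 with at least 40 peaks, where 2, 9 and 2 names were tested. Shared LTR loci fell from 474 to 261 in peaks above the median rank. Intact copies in replicate 2 peaks came to 26.3% with unique words. The cause was not tested, apart from the fewer peaks or names tested. No paired analysis was possible because the inputs that share the replicate numbers had no peak file here and a single condition was measured. Each list gives narrow intervals for all LTR peaks, but names with under 20 peaks have wide ones.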

Other observations

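LTRs of the MLT2 names, the old LTRs of ERVL elements, held 14 peaks in replicate 1 and 32 in replicate 2. The AP-1 site was in 8 (57.1%) and 17 (53.1%) of them and the heptamer in 3 (21.4%) and 6 (18.8%). The group was put together after its values were seen, and no test was made.

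The LTR share of peaks by chromosome ran from 2.34% on chromosome 22 (3 of 128 peaks, 0.80% to 6.66%) to 8.51% on chromosome 21 (12 of 141, 4.94% to 14.3%) in replicate 1. In replicate 2 it ran from 3.85% on chromosome 22 (14 of 364, 2.30% to 6.35%) to 8.78% on chromosome 13 (73 of 831, 7.04% to 10.9%). No test between chromosomes was made, and the share of LTR sequence on each was not analysed here.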
